A study of Mus musculus with 12 samples.

Results

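Solute carrier (Slc) genes encode the membrane transporters that move amino acids, sugars, metal ions, nucleotides and other small molecules across the plasma membrane and organelle membranes. The 160 genes described here are those whose symbol has the form Slc, a family number, the letter a and a member number, and that were listed in both the mRNA and the ribosome footprint table of the series. These tables have 10080 genes in common, out of 41255 in the mRNA table. The symbol form leaves out carriers of families named with another letter (such as Slc35b). A further 188 Slc symbols were listed in the mRNA table alone, of which 55 had no read in any mRNA library and 17 had a mean of at least 10 normalized counts.

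The samples were 6 clones of Ba/F3, a mouse lymphoid cell line that depends on interleukin 3. All 6 were grown from single cell colonies, carried a retroviral human RPL10 cDNA and had the endogenous Rpl10 knocked down by an shRNA. Clones 11, 13 and 35 expressed RPL10 R98S, a ribosomal protein L10 mutant found in T-cell acute lymphoblastic leukemia, and clones 28, 29 and 36 expressed RPL10 WT. Each clone gave 1 poly(A) mRNA library and 1 library of ribosome-protected fragments (RPF, the pieces of mRNA covered by ribosomes), both made from cells given 100 µg/ml of cycloheximide for 5 min before lysis. Values below are normalized counts in the order of clones 11, 13 and 35 for R98S and 28, 29 and 36 for WT, log2 fold changes are R98S over WT with their standard error (SE), n = 3 clones per genotype, and a gene is called at an adjusted p under 0.1 over all genes tested with limma.

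Depth was 20576796 to 23136595 reads in 5 mRNA libraries and 6617457 in that of WT clone 28, and 3477723 to 10883086 reads in the RPF libraries. Mouse Rpl10 lay between 1449 and 4501 normalized counts in mRNA with no call between genotypes, but the sources do not say whether reads of the human transgene were counted there. Of 11 Ba/F3 markers, Ptprc, Il3ra, Csf2rb, Csf2rb2, Cd79a and Cd79b had a mean of at least 10, whereas the B cell factors Ebf1 and Pax5 and the surrogate light chain genes Igll1 and Vpreb1 had at most the worth of 1 read of the shallowest library in any clone. The summed level of the 11 Ba/F3 markers was 100806 to 122568 in R98S and 48089.8 to 93811 in WT. Most of it came from Csf2rb and Csf2rb2, with mean mRNA of 60004 and 48611 in R98S and 33338.5 and 25394 in WT. Cd79a and Cd79b were also higher in R98S by means. Ptprc (4393 against 8109) and Il3ra (737 against 861) were lower, so the markers did not move together. Of 10 markers of other cell types, 8 were listed and 2 had a mean of at least 10, with a summed level of 20.6 to 44.5 in R98S and 37.9 to 172 in WT. The part of these differences in the carrier results was not tested, and in bulk libraries a lower level in every cell cannot be told apart from fewer cells that carry the transcript.

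Carriers work in functional units. At the plasma membrane, light subunits such as Slc7a5 pair with the heavy chain Slc3a2 to exchange amino acids, GLUT proteins (Slc2a) let glucose in, and the monocarboxylate transporters of Slc16a take lactate in or out together with the chaperone basigin (Bsg). ZIP proteins (Slc39a) raise cytosolic zinc whereas ZnT proteins (Slc30a) lower it, and the Slc25a family connects the mitochondrial matrix with the cytosol. By substrate the 160 genes comprised 36 mitochondrial, 24 metal and heme, 23 amino acid and peptide, 21 inorganic ion, 14 vitamin, choline and lipid, 13 glucose and other sugar, 12 organic anion and cation, 9 nucleotide sugar and nucleoside and 4 monocarboxylate carriers. The other 4 (Slc9a3r1, Slc9a3r2, Slc4a1ap and Slc7a6os) fit the symbol rule without being carriers.

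To see which transporters these cells use, levels were compared between genes per kilobase, with exon length for mRNA and coding length for RPF. Slc25a5, the adenine nucleotide translocator ANT2 that exports ATP from mitochondria, had the highest mRNA level of all members at 5917 normalized counts per kilobase of exon in WT. It was followed by Slc7a5 (2588), the vesicular monoamine transporter Slc18a2 (2511), Slc3a2 (2355) and the glucose transporter Slc2a3 (2037). The LAT1 subunits Slc7a5 and Slc3a2 were thus at similar mRNA levels, and per kilobase of the longest transcript Slc25a5 was again first while the order of the next 3 changed. Slc25a5 has processed pseudogenes in the mouse genome, with which its reads may have been split. On the RPF scale the order differed, with Slc2a3 first at 7887 normalized counts per kilobase of coding sequence, followed by Slc3a2 (5694), Slc18a2 (4077) and Slc7a5 (3632).

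Most carriers were less abundant than these. The median member stood at percentile 35.6 of mRNA per kilobase and 41.9 of RPF per kilobase among 9971 genes of both tables, and 12 members were in the top 10% of mRNA and 15 in the top 10% of RPF. Of those 12, 6 were mitochondrial (Slc25a1, Slc25a3, Slc25a4, Slc25a5, Slc25a11 and Slc25a39). At the other end, the insulin-responsive glucose transporter Slc2a4 had no mRNA read in 5 of 6 clones.

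Amino acid carriers carried many footprints for their mRNA. The ratio of RPF to mRNA per kilobase had a median percentile of 89.0 over the 23 amino acid carriers in WT, against 40.3 for the 36 mitochondrial carriers and 59.4 for the 24 metal and heme carriers. Examples are the cationic amino acid transporter Slc7a1 at percentile 97.4, the glutamine transporters Slc38a1 (97.3) and Slc38a2 (94.5), and the glycine transporter Slc6a9 (92.9). Carriers with few footprints for their mRNA included the mitochondrial Slc25a36 at percentile 0.612 and Slc25a37 at 1.29, a pyrimidine nucleotide and an iron carrier. In R98S the median percentile was 79.9 for the amino acid carriers and 54.6 for the mitochondrial carriers. Both amino acid medians were the value of 1 gene, Slc15a3, which was tested in neither assay. Its mean was 10.7 in WT and 8.89 in R98S in mRNA, and 7.73 and 4.70 in RPF. These percentiles describe levels and were not tested.

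**Figure D1:**
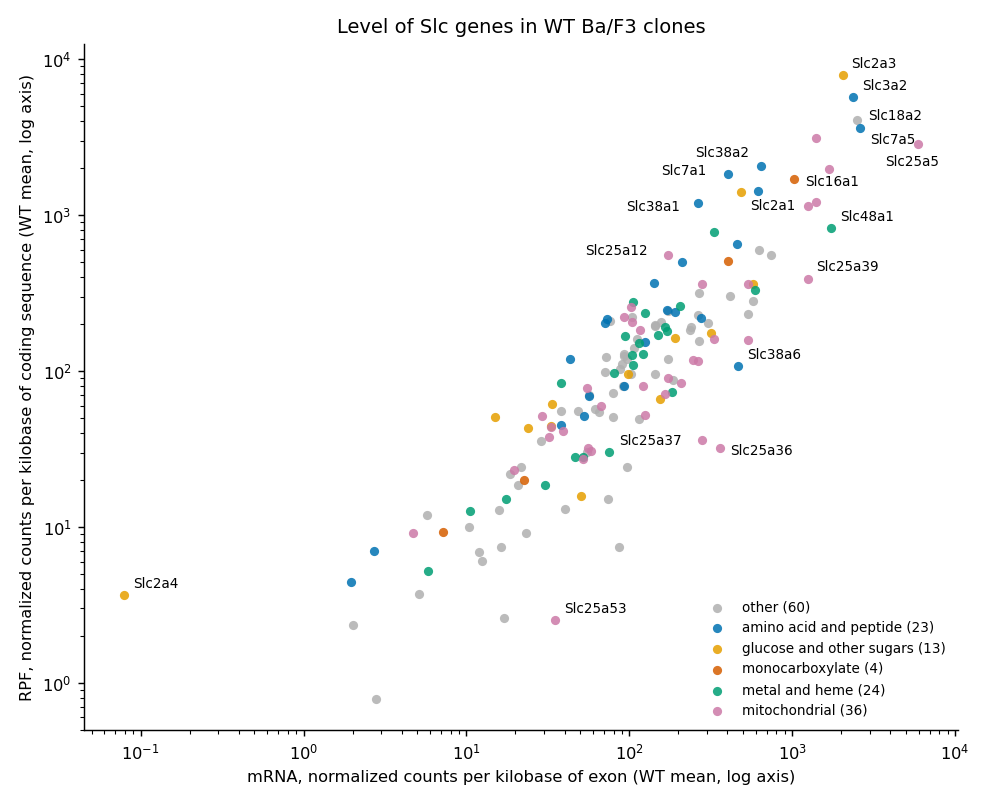
Level of each of the 160 Slc genes in WT clones. The x axis is mRNA per kilobase of exon and the y axis RPF per kilobase of coding sequence, both the mean of 3 WT clones in normalized counts on log axes, and colours give the substrate class. Slc25a5 has the highest mRNA level, Slc2a3 the highest RPF level, and Slc25a36 and Slc25a37 lie below the main cloud.

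Between genotypes, 17 members were called in mRNA, in RPF or in both. In mRNA, 157 members were tested and 12 were called, 3 higher and 9 lower in R98S. Over all 11344 genes tested in mRNA 6.94% were called, 3.03% higher and 3.91% lower, so the share of members called was near that of all genes. In RPF, 151 members were tested and 9 were called, 5 higher and 4 lower, against 7.76% of all 9580 genes called, 3.13% higher and 4.62% lower. The 3 members not tested in mRNA (Slc15a3, Slc2a4 and Slc32a1) and the 9 not tested in RPF had a mean under 10 normalized counts.

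The change of mRNA and of RPF mostly had the same sign. Slc9a3r1 and Slc16a3 were called higher and Slc24a5 and Slc30a1 lower in both assays, no member was called in opposite directions, and 16 of the 17 members had the same sign in both. The exception was Slc38a6. The median log2 fold change over members was -0.10 in mRNA and -0.06 in RPF, beside 0.01 in both assays over all genes tested. All R98S clones lay on one side of all WT clones for 34 of 157 members in mRNA, 5 higher and 29 lower, where 23.5% of all genes did so, 1351 higher and 1313 lower. The share of members was thus near that of all genes, and the split by direction was not tested. In RPF this held for 34 of 151, 12 higher and 22 lower, beside 25.3% of all genes, 1202 higher and 1222 lower. With 3 against 3 clones an exact two-sided permutation test of a single gene cannot give a p below 0.1, so calls rest on limma.

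**Figure D2:**
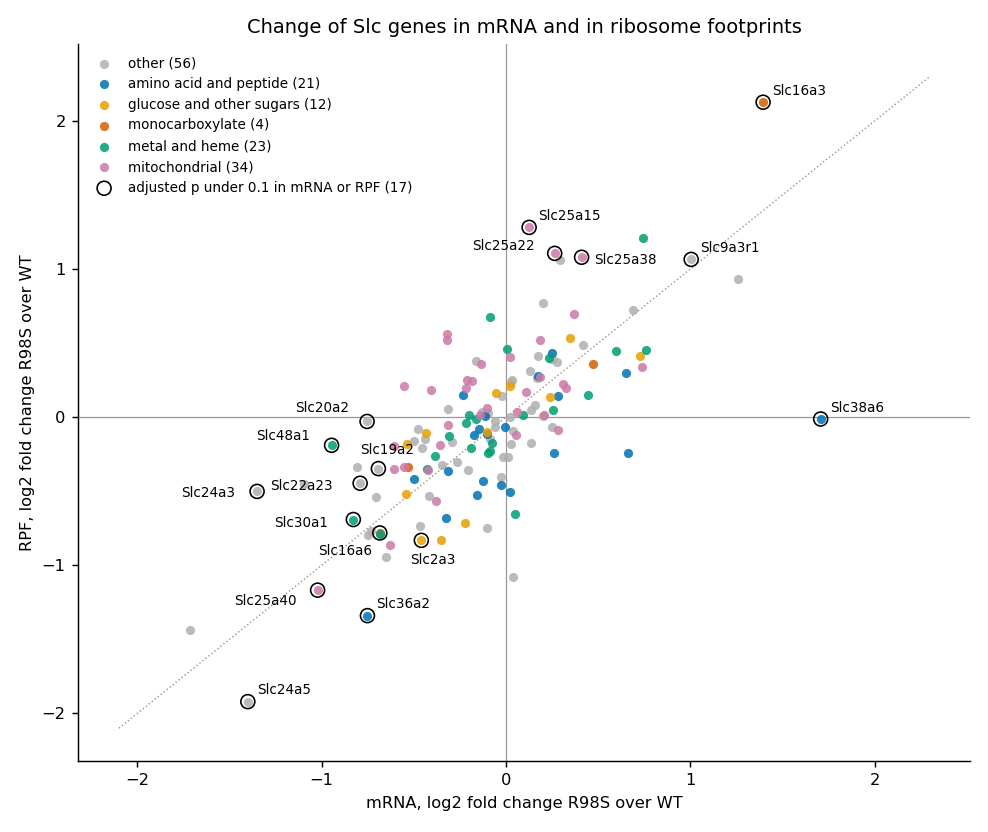
Change of the 150 Slc genes tested in both assays. The x axis is the log2 fold change of mRNA and the y axis that of RPF, R98S over WT, with the dotted line marking equal change and circles marking the 17 called members. Slc38a6 lies far to the right with an RPF change of -0.01, whereas Slc25a15, Slc25a22 and Slc25a38 lie above the line.

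The translation efficiency (TE, footprints over mRNA within each clone) was tested for 141 members, those that reached 10 normalized counts in each of the 12 libraries. None was called by limma, beside 0.0221% of all 9043 genes. At an unadjusted p under 0.05 there were 16 members, where 7.85% of all genes were. On recovered reads, with assays not paired by clone, edgeR called no member and 0.0221% of all genes. DESeq2 in the same way called 1 member, Slc38a6, and 0.0663% of all genes. Limma with library quality weights called 17 members, 9 higher and 8 lower, where it called 8.8% of all genes. Clones did not overlap in TE for 23 members, 16 higher and 7 lower in R98S, beside 14.8% of all genes, 674 higher and 666 lower. Of 21 amino acid carriers tested 6 were lower and 1 higher without overlap, and of 33 mitochondrial carriers 6 were higher and none lower, with no test of either class.

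Of 21 amino acid carriers tested in mRNA 1 was called higher (Slc38a6), which is 4.76% beside 6.94% of all genes called. Of 22 tested in RPF 1 was called lower (Slc36a2), which is 4.55% beside 7.76% of all genes. The median log2 fold change was -0.10 (range -0.75 to 1.71) in mRNA and -0.12 (range -1.34 to 0.43) in RPF. No test was run on the group. Slc38a6 (chr12:73286779-73354049, mm10) is a member of the sodium-coupled neutral amino acid transporter family. Its mRNA was 8799, 13303 and 13381 in R98S and 2753, 3594 and 4544 in WT. Every R98S clone was thus well above every WT clone, 3.26-fold by means, with a log2 fold change of 1.71 (SE 0.24, adjusted p = 0.00452). The call held whichever clone was left out.

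Footprints of Slc38a6 did not follow its mRNA. They were 148, 134 and 188 in R98S and 181, 137 and 154 in WT, with overlapping genotypes and a log2 fold change of -0.01 (SE 0.22, adjusted p = 0.98). The ratio of RPF to mRNA was 0.0169, 0.0102 and 0.0141 in R98S and 0.0659, 0.0385 and 0.0341 in WT, so all R98S clones lay below all WT clones. This TE difference of -1.72 (SE 0.39) was not called by limma (adjusted p = 0.517), and was called by DESeq2 (adjusted p = 0.00111) and with library quality weights (adjusted p = 0.0215). The RPF to mRNA ratio per kilobase of Slc38a6 stood at percentile 4.53 of all genes in WT and 0.401 in R98S.

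The PAT transporters Slc36a1 and Slc36a2 move small neutral amino acids such as glycine, proline and alanine together with protons, and neighbour each other on chromosome 11. RPF of Slc36a2 was 125, 133 and 121 in R98S and 437, 391 and 194 in WT. The R98S clones lay close together below all WT clones, at 0.371 of the WT mean, with a log2 fold change of -1.34 (SE 0.29, adjusted p = 0.0306). Its mRNA was 381, 397 and 303 against 696, 768 and 411, lower in every R98S clone but not called (-0.75, SE 0.26, adjusted p = 0.163). The RPF call was lost without R98S clone 13 (adjusted p = 0.106) or WT clone 28 (adjusted p = 0.101).

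Slc36a1, which also acts on the lysosome, had the second lowest TE difference of the amino acid carriers. Its mRNA was 857, 979 and 628 in R98S and 405, 643 and 510.2 in WT, which overlap, and its RPF was 97.3, 101 and 89.0 against 105, 130.1 and 105. The TE difference was -0.90 (SE 0.21), with R98S clones below WT clones and an adjusted p of 0.562.

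The main amino acid entry routes showed no call. Slc3a2 mRNA was 10977, 10465 and 8551 in R98S and 9423, 6309.6 and 9198 in WT (log2 fold change 0.28, SE 0.20, adjusted p = 0.523). Slc7a5 mRNA was 12998, 11135 and 9193 against 7726, 7550.1 and 13508 (0.25, SE 0.25, adjusted p = 0.654), and its RPF difference of 0.43 (SE 0.27, adjusted p = 0.405) was the most positive of the class. For both LAT1 subunits the genotypes overlapped.

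Carriers of serine and glycine, which feed one-carbon metabolism, were examined apart. Of 7 members tested, 1 was called, the mitochondrial Slc25a38 in RPF, and 5 of 7 RPF log2 fold changes were negative, with a median of -0.42. Over all 9580 genes tested in RPF 7.76% were called and 4673 log2 fold changes were negative. No test was run on these 7 genes as a group. RPF of the alanine, serine and cysteine transporter Slc1a5 was 1609, 1568 and 1594 in R98S and 3687, 1107 and 2360.1 in WT. The R98S clones nearly coincided, inside a WT range that spanned 3.33-fold. RPF of Slc1a4 was 467, 519 and 208 against 923, 321 and 507, and that of Slc6a9 was 685, 607 and 185 against 714, 119.7 and 478, both overlapping. Slc38a1 RPF was 1282, 1259.7 and 1128 against 2470.4, 1286 and 1497, with R98S below WT in each clone but no call (-0.46, SE 0.23, adjusted p = 0.303).

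WT clones 28 and 29 stood at the ends of the WT range for many members, not for amino acid carriers alone. RPF was highest in WT clone 28 and lowest in WT clone 29 for 50 of 151 members tested (33.1%), beside 22.0% of all genes. By class this order held for 11 of 22 amino acid (50%), 6 of 12 vitamin, choline and lipid (50%), 2 of 4 monocarboxylate (50%), 10 of 23 metal and heme (43.5%) and 7 of 34 mitochondrial carriers (20.6%). In mRNA it held for 22.9% of members and 21.1% of all genes. This order is a description of 3 clones and was not tested.

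**Figure D3:**
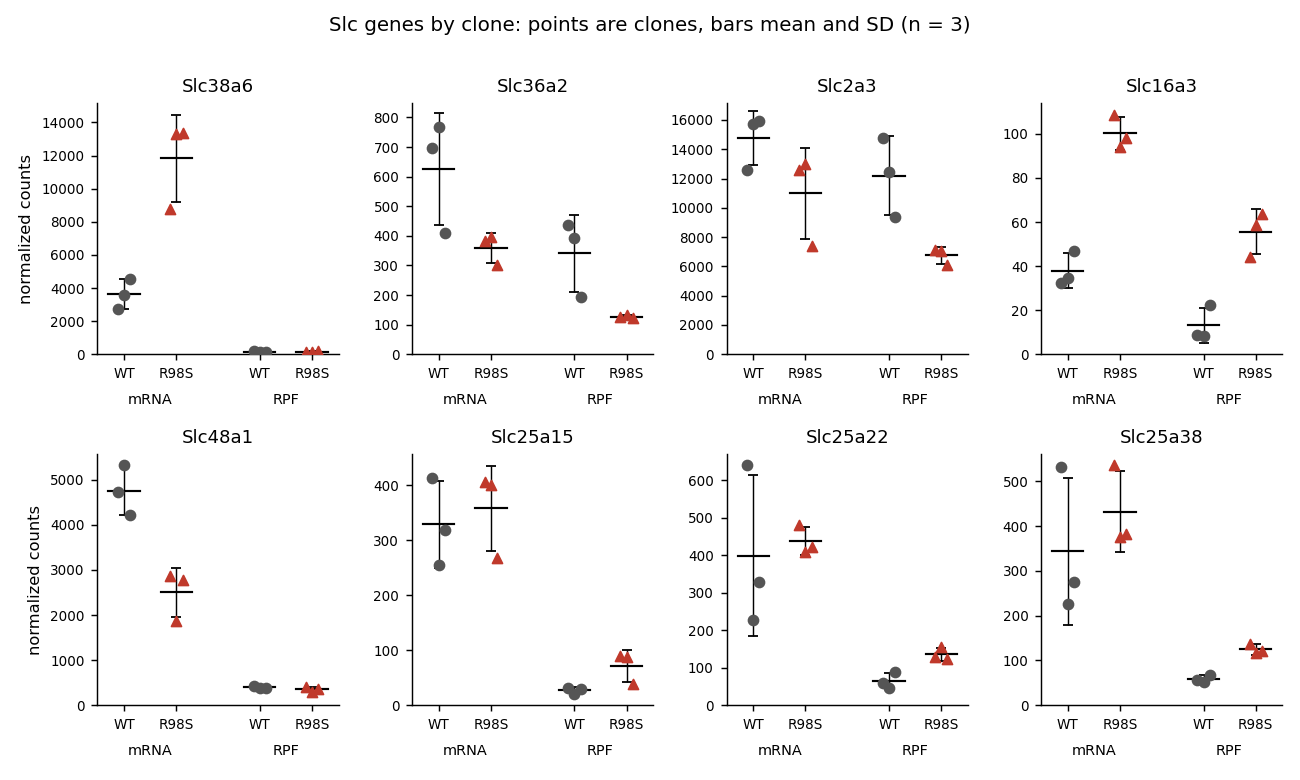
Normalized counts of 8 called Slc genes in each clone, mRNA on the left and RPF on the right of each panel. Points are clones (grey circles WT, red triangles R98S), lines the mean and error bars the SD of 3 clones, and each y axis starts at 0. Slc38a6 differs in mRNA alone, Slc16a3 is higher in both assays, and Slc25a15, Slc25a22 and Slc25a38 are higher in R98S footprints with overlapping mRNA.

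Among 13 carriers of glucose and other sugars, 12 were tested in each assay, and the single call was Slc2a3 in RPF. That is 8.33% in RPF beside 7.76% of all genes called, and none in mRNA beside 6.94% of all genes. The median log2 fold change was -0.16 in mRNA and -0.10 in RPF. Slc2a3 (chr6:122727809-122801640) encodes GLUT3, a high-affinity glucose transporter, and was the most abundantly footprinted member. RPF was 7128, 7025 and 6101 in R98S and 14737, 12478 and 9365 in WT. All R98S clones were below all WT clones, at 0.554 of the WT mean, with a log2 fold change of -0.83 (SE 0.21, adjusted p = 0.0559). The call was lost without R98S clones 11, 13 or 35 (adjusted p = 0.162, 0.185 and 0.107) and without WT clone 28 (adjusted p = 0.119). Slc2a3 mRNA was 12586, 13012 and 7425 against 12608, 15704 and 15959.7, which overlap (-0.46, SE 0.24, adjusted p = 0.357).

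The other common glucose transporter, Slc2a1 (GLUT1), varied more within genotypes. Its mRNA was 4033, 3088 and 1461 in R98S and 2371, 923 and 1835 in WT, and its RPF 3222, 3027 and 1861 against 3075, 1338 and 1855. The genotypes overlapped in both, and its mRNA log2 fold change of 0.73 (SE 0.41, adjusted p = 0.404) was the most positive of the class. Slc45a4, a proton-coupled sugar transporter family member, had the lowest mRNA value of the class (-0.54, SE 0.30, adjusted p = 0.383), and Slc2a9, a urate transporter, the highest RPF value (0.53, SE 0.40, adjusted p = 0.486). Slc2a6, Slc2a8 and the endoplasmic reticulum glucose 6-phosphate transporter Slc37a4 were not called.

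Txnip, which binds GLUT proteins and promotes their internalization, fell in both assays. Txnip mRNA was 8205, 5852 and 8978 in R98S and 15932, 15983 and 19340.3 in WT, and RPF was 1849, 1171 and 3014 against 10479, 6987 and 7837. The log2 fold changes were -1.17 (SE 0.20, adjusted p = 0.0132) and -2.15 (SE 0.31, adjusted p = 0.00526), and both calls held whichever clone was left out.

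Of the 4 monocarboxylate carriers, Slc16a3 rose in both assays and Slc16a6 fell in mRNA. That is 2 of 4 called in mRNA beside 6.94% of all genes, and 1 of 4 in RPF beside 7.76%. No test was run on these 4 genes as a group. Slc16a3 encodes MCT4, the lactate exporter of highly glycolytic cells, and was a low-level gene here (chr11:120948480-120960868). Its mRNA was 109, 94.2 and 98 in R98S and 32.2, 34.6 and 47.0 in WT, and its RPF 44.1, 58.7 and 63.8 against 8.60, 8.33 and 22.4. No clones overlapped in either assay. The mean was 2.64-fold higher in mRNA (log2 fold change 1.40, SE 0.30, adjusted p = 0.0357) and 4.24-fold higher in RPF (2.13, SE 0.42, adjusted p = 0.0227). The mRNA call was lost without R98S clone 11 (adjusted p = 0.177) or 13 (adjusted p = 0.134), and the RPF call without R98S clone 13 (adjusted p = 0.107).

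Slc16a1, the broadly expressed MCT1, was far more abundant, at 3526, 2852 and 2995 in R98S mRNA and 5266, 3703 and 4651 in WT mRNA. R98S clones were below WT clones without a call (-0.53, SE 0.18, adjusted p = 0.158), and its RPF overlapped (-0.34, SE 0.21, adjusted p = 0.396). Slc16a6, or MCT7, was called lower in mRNA, with 970.1, 1359 and 1342 against 1786, 1782 and 2310.2 (-0.68, SE 0.20, adjusted p = 0.0995). This was the call nearest to the threshold, and it was lost without any clone but WT clone 28, with adjusted p from 0.123 to 0.368. Amz2 on the opposite strand covers 21.5% of the exonic bases of Slc16a6. Its mRNA log2 fold change was 0.02 (adjusted p = 0.978).

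The chaperone Bsg, which brings MCT1 and MCT4 to the cell surface, was lower in R98S. Its mRNA was 6610.4, 4849.9 and 7883 in R98S and 11182, 11151 and 9814 in WT (-0.76, SE 0.20, adjusted p = 0.0759), and its RPF log2 fold change was -0.64 (SE 0.17, adjusted p = 0.0703). No clones overlapped. Both calls were lost without R98S clone 11 (adjusted p = 0.213 and 0.212), R98S clone 13 (0.271 and 0.279) or WT clone 36 (0.149 and 0.133), that of mRNA also without WT clone 29 (0.151) and that of RPF without WT clone 28 (0.119).

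Of the 24 metal and heme carriers, 2 were called lower in mRNA (Slc48a1 and Slc30a1) and none higher, which is 8.33% beside 6.94% of all genes called. In RPF 1 of 23 was called lower (Slc30a1) and none higher, which is 4.35% beside 7.76% of all genes. Of all genes 3.91% were called lower in mRNA and 4.62% in RPF. The median log2 fold changes of the class were -0.09 and -0.04. Slc30a1 (chr1:191906767-191913247) encodes ZnT1, which exports zinc at the plasma membrane and whose transcription is raised by zinc through the factor Mtf1, as is that of the metallothioneins Mt1 and Mt2. Its mRNA was 449, 391 and 655 in R98S and 728, 885 and 1002 in WT, and its RPF 172, 159 and 205 against 282, 281 and 300.4. All R98S clones lay below all WT clones in both assays, at 0.572 of the WT mean in mRNA (-0.83, SE 0.24, adjusted p = 0.0951) and 0.621 in RPF (-0.69, SE 0.19, adjusted p = 0.0735). Both calls were lost without R98S clones 11 or 13 or WT clones 29 or 36, and that of RPF also without WT clone 28, with adjusted p from 0.178 to 0.326 in mRNA and from 0.111 to 0.262 in RPF.

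The metallothioneins, small zinc-binding proteins, fell further. Mt1 mRNA was 3349, 2323 and 3018 in R98S and 9614, 6635 and 5576 in WT, and Mt2 mRNA was 2455, 1613 and 1896 against 6552, 6946 and 4495. The log2 fold changes were -1.31 (SE 0.23, adjusted p = 0.0146) and -1.59 (SE 0.22, adjusted p = 0.00487). In RPF they were -1.43 (SE 0.16, adjusted p = 0.00107) for Mt1 and -1.55 (SE 0.18, adjusted p = 0.00184) for Mt2. All 4 calls held whichever clone was left out. Mtf1 itself was higher in each R98S clone in mRNA, at 472, 495 and 524 against 371, 281 and 315, without a call (0.63, SE 0.20, adjusted p = 0.124).

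The sequences before the starts of these 3 genes are shown because the genes moved together in both assays. Each is the 250 bases before the RefSeq start (GRCm38.p6, plus strand), at chr1:191906531-191906780 for Slc30a1, chr8:94178839-94179088 for Mt1 and chr8:94172368-94172617 for Mt2. Capitals mark matches on either strand to the metal response core, searched as TGCACNC and TGCGCNC.
Slc30a1: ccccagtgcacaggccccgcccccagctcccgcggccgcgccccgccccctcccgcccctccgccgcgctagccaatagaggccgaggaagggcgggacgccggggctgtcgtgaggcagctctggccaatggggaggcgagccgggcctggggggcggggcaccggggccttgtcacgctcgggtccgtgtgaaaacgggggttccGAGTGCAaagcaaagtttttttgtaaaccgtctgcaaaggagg
Mt1: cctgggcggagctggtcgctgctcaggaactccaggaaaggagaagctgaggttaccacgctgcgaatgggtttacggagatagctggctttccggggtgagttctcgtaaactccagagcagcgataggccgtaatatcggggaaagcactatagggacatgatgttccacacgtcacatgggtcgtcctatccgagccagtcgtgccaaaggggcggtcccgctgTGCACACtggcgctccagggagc
Mt2: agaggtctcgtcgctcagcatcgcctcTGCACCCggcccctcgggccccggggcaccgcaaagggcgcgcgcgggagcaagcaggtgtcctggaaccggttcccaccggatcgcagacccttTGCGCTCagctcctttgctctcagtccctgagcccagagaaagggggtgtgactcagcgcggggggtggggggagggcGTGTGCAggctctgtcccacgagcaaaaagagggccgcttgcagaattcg
There was 1 match for Slc30a1, on the minus strand, 1 for Mt1 and 3 for Mt2, and none overlapped another. Of all 32851 RefSeq promoters of this length 21.4% held at least 1 match and 1.26% held 3 or more. Among 22 promoters of the metal and heme carriers, from 19 genes, 10 held a match (45.5%) and 0 held 2 or more. Of all RefSeq promoters 5.17% held 2 or more. Among 166 promoters of members 26.5% held a match. These shares were not tested.

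**Figure D4:**
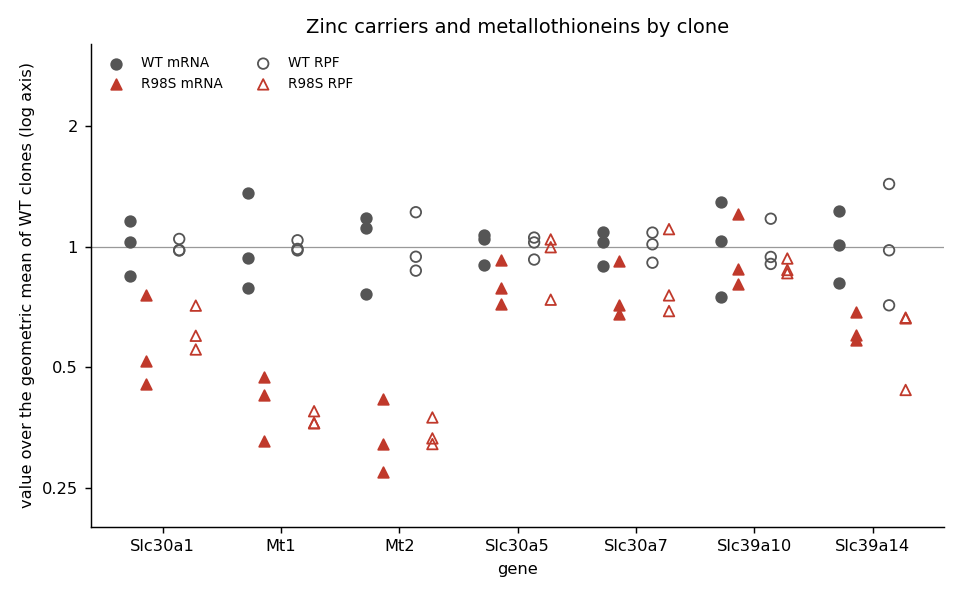
Zinc carriers and metallothioneins in each clone. The y axis is the value over the geometric mean of the 3 WT clones of the same gene and assay on a log axis, filled symbols are mRNA, open symbols RPF, grey circles WT and red triangles R98S. Slc30a1, Mt1 and Mt2 lie below 1 in each R98S clone and assay, whereas Slc39a10 overlaps.

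All 5 ZnT genes tested (Slc30a1, Slc30a5, Slc30a6, Slc30a7 and Slc30a9) had negative log2 fold changes in both assays. Their median was -0.31 in mRNA and -0.23 in RPF, though Slc30a1 alone was called. Of all genes tested 5510 of 11344 were negative in mRNA and 4673 of 9580 in RPF. The signs of this family were not tested. Among the 11 ZIP genes tested none was called, and the medians were -0.09 and -0.01. The closest was Slc39a14, an importer of zinc, iron and manganese, with mRNA of 654, 749 and 638 in R98S and 1096, 882 and 1335 in WT (-0.68, SE 0.20, adjusted p = 0.102) and RPF of 289, 290.0 and 191 against 625, 311 and 427 (-0.79, SE 0.27, adjusted p = 0.136). R98S clones were below WT clones in both, just outside the threshold.

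Slc48a1 (chr15:97778520-97792692), or HRG1, moves heme from the lysosome to the cytosol and had the highest mRNA per kilobase of the class. Its mRNA was 2865, 1873 and 2769 in R98S and 4732, 5317 and 4226 in WT, and its RPF 407, 294 and 349 against 423, 383 and 383. The mRNA was thus at 0.526 of the WT mean with no overlap (-0.95, SE 0.20, adjusted p = 0.0342), a call lost without R98S clone 13 (adjusted p = 0.122). The footprints overlapped (-0.19, SE 0.19, adjusted p = 0.614), and the TE difference of 0.76 (SE 0.22) was not called (adjusted p = 0.629). The copper carriers Slc31a1 and Slc31a2, the iron importer Slc11a2 and the magnesium carriers of Slc41a were not called, and the iron exporter Slc40a1 was not listed in the RPF table. The RPF value of Slc31a2 was the most positive of the class (1.21, SE 0.55, adjusted p = 0.249). Its RPF was 27.1, 30.2 and 8.40 in R98S and 9.55, 5.21 and 9.22 in WT, so R98S clone 35 stood with the WT clones. In mRNA the extremes were Slc41a2 (0.76, SE 0.37, adjusted p = 0.329) and Slc11a1, a macrophage metal carrier at 6.35 to 29.5 normalized counts (-1.14, SE 0.50, adjusted p = 0.267).

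Of 36 mitochondrial carriers tested in mRNA 1 was called lower (Slc25a40), which is 2.78% beside 6.94% of all genes called. Of 34 tested in RPF 3 were called higher (Slc25a15, Slc25a22 and Slc25a38), which is 8.82% beside 7.76% of all genes called, so the share in RPF was near that of all genes. Their median log2 fold change was -0.14 in mRNA, 0.19 in RPF and 0.25 in TE, beside 0.01 in mRNA and RPF and -0.00 in TE over all genes tested. The range was -1.02 to 0.74 in mRNA and -1.17 to 1.28 in RPF. In TE, 24 of 33 were positive, where 4502 of all 9043 genes were. Clones did not overlap in TE for 6 of the 33, all higher in R98S, beside 14.8% of all genes in either direction (674 higher and 666 lower). No single TE value was called, and no test was run on the group.

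Slc25a15 carries ornithine and citrulline between matrix and cytosol. RPF was 90.4, 87.2 and 38.6 in R98S and 31.5, 20.8 and 30.3 in WT, whereas mRNA was 406, 400.5 and 268 against 414, 255 and 318. Footprints of each R98S clone exceeded those of each WT clone, 2.62-fold by means (log2 fold change 1.28, SE 0.38, adjusted p = 0.088), while mRNA overlapped (0.13, SE 0.26, adjusted p = 0.852). The TE difference of 1.16 (SE 0.24) was the most positive of all members (adjusted p = 0.517). The RPF call was lost without any clone but R98S clone 35, with adjusted p from 0.139 to 0.312.

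Slc25a38, which imports glycine for heme synthesis, had RPF of 137, 116 and 121 in R98S and 55.4, 52.1 and 68.5 in WT. The genotypes were well apart at 2.12-fold (1.08, SE 0.24, adjusted p = 0.0333). Its mRNA was 537, 377 and 383 against 532, 225 and 275, with WT clone 28 inside the R98S range (0.41, SE 0.32, adjusted p = 0.559). The RPF call was lost without R98S clone 11 (adjusted p = 0.144) or 13 (adjusted p = 0.110).

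The glutamate carrier Slc25a22 had RPF of 129.8, 154 and 123 in R98S and 58.3, 45.8 and 89.6 in WT, 2.10-fold by means (1.11, SE 0.28, adjusted p = 0.0559). In mRNA WT clone 28 was the highest of all clones at 639, with 481, 409 and 422 in R98S and 228 and 329 in the other WT clones (0.26, SE 0.34, adjusted p = 0.741). The RPF call was lost without R98S clones 11 or 13 or WT clones 28 or 29, with adjusted p from 0.115 to 0.230. Genes of chromosome 7, where Slc25a22 lies, had a median RPF log2 fold change of 0.20, and with chromosome medians removed the adjusted p of Slc25a22 was 0.105.

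Slc25a40 takes part in mitochondrial glutathione import with its relative Slc25a39. Its mRNA was 237, 205 and 247 in R98S and 469.9, 506 and 424 in WT, all R98S clones at about the same level below WT (-1.02, SE 0.20, adjusted p = 0.0242), lost without R98S clone 13 (adjusted p = 0.116). RPF was 12.2, 8.38 and 23.5 against 24.8, 41.6 and 30.3, lower without a call (-1.17, SE 0.44, adjusted p = 0.164). Slc25a39 mRNA was 3463, 3412 and 3489 against 3961, 3159 and 3147 (0.02, SE 0.16, adjusted p = 0.962). These 2 relatives thus stood apart in these clones, though the difference between them was not tested.

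The abundant mitochondrial carriers had no call. Slc25a5 mRNA was 11078, 10552 and 11747 in R98S and 8437, 9080.1 and 11698 in WT (0.21, SE 0.18, adjusted p = 0.600), and log2 fold changes were -0.36 (SE 0.19, adjusted p = 0.366) for Slc25a4 and -0.14 (adjusted p = 0.754) for the phosphate carrier Slc25a3. Footprints of the pyrimidine nucleotide carrier Slc25a36 were 48.9, 45.3 and 48.7 in R98S and 30.6, 32.3 and 32.9 in WT, above WT in each clone without a call (0.56, SE 0.28, adjusted p = 0.294), while its mRNA was below WT in each clone (-0.32, SE 0.18, adjusted p = 0.403). Slc25a45 had the most positive mRNA value of the class, with 541, 487 and 647 against 328, 398 and 279.8 (0.74, SE 0.22, adjusted p = 0.101), just outside the threshold.

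**Figure D5:**
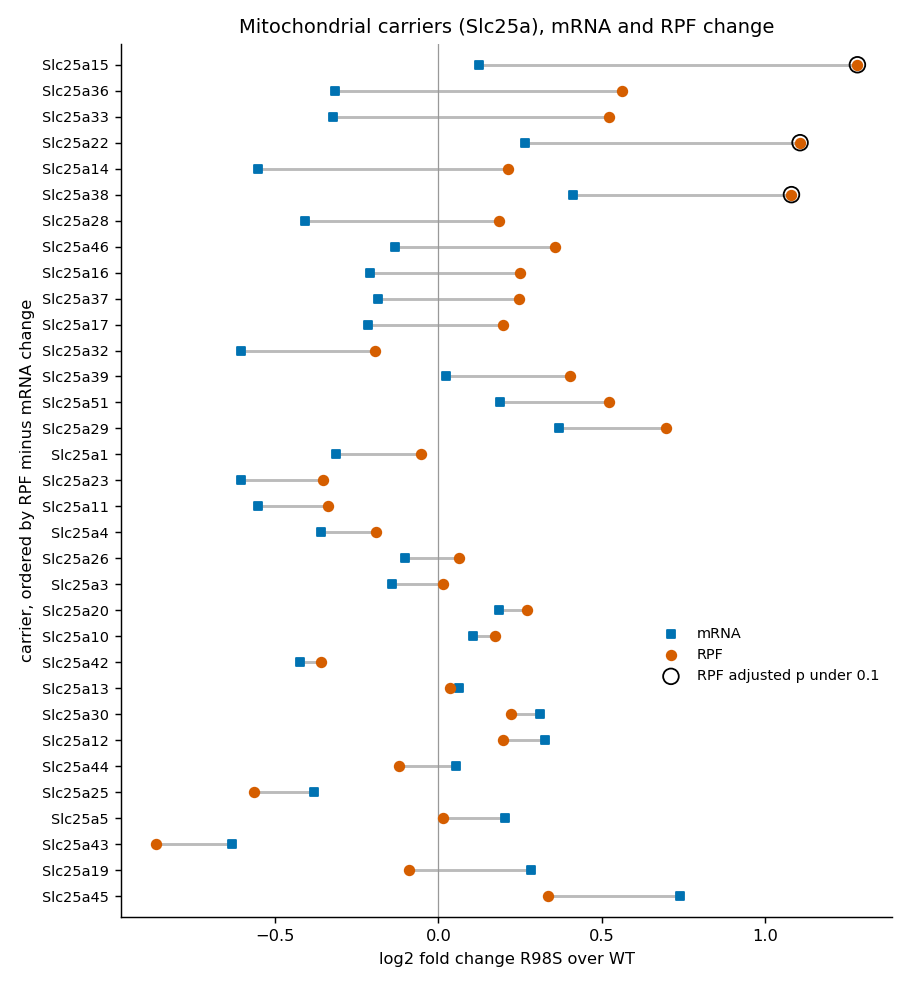
Change of the 33 mitochondrial carriers tested for TE, ordered by the difference between RPF and mRNA change. Squares are mRNA and circles RPF log2 fold changes, R98S over WT, grey lines join the values of a gene and black rings mark RPF calls. For 24 of 33 the circle lies to the right of the square.

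Genes outside the Slc symbol rule that work with carriers were compared from a list of mitochondrial pyruvate, serine and calcium transport genes, the lysosomal cystine carrier Ctns, the iron uptake receptor Tfrc, chaperones and regulators of carriers, metal response genes and amino acid response genes. Of 17 tested in each assay, 5 fell in mRNA and in RPF (Bsg, Txnip, Mt1, Mt2 and Mcu) and none rose, beside 3.91% of all genes lower in mRNA and 4.62% in RPF. The list was chosen with earlier results of these data known, so its count is not independent evidence. Mcu, the pore of the mitochondrial calcium uniporter, had mRNA of 1366, 1203 and 1148 in R98S and 1882, 1937 and 2011 in WT (-0.65, SE 0.16, adjusted p = 0.0556) and an RPF log2 fold change of -0.60 (SE 0.16, adjusted p = 0.0728). Its mRNA call was lost without any clone but WT clone 28 and its RPF call without any but R98S clone 35 and WT clone 29, with adjusted p from 0.111 to 0.194 and from 0.165 to 0.254. RPF of the pyruvate carrier subunit Mpc2 was 407, 440.0 and 284 in R98S and 197, 246 and 256 in WT without a call (0.68, SE 0.22, adjusted p = 0.118). Footprints of the transferrin receptor Tfrc were 3248, 4056 and 4369 against 3227, 1988 and 2278 (0.66, SE 0.22, adjusted p = 0.120).

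Among the other classes, 5 carriers fell in mRNA and none rose, beside 3.91% of all genes lower and 3.03% higher. These were 3 of 21 inorganic ion, 1 of 14 vitamin, choline and lipid, 1 of 12 organic anion and cation and none of 9 nucleotide sugar and nucleoside carriers, and in RPF 1 of 19 inorganic ion carriers fell, where 4.62% of all genes were lower. The potassium-dependent sodium calcium exchanger Slc24a5 (chr2:125068124-125088677), known from melanosomes, had the lowest RPF value of all members. RPF was 34, 60.3 and 55.4 in R98S and 181, 206 and 174 in WT, and mRNA 55.6, 109.7 and 73.9 against 121, 277 and 254. The footprints were at 0.267 of the WT mean (-1.92, SE 0.27, adjusted p = 0.00521), a call that held whichever clone was left out. The mRNA log2 fold change of -1.40 (SE 0.38, adjusted p = 0.083) was lost without any clone but WT clone 28, with adjusted p from 0.120 to 0.284. Exons of Myef2 on the opposite strand cover 39.5% of the exonic bases of Slc24a5. RPF of Myef2 was 116, 98.1 and 80.6 in R98S and 195, 199.9 and 254 in WT (-1.13, adjusted p = 0.0231), and its mRNA log2 fold change was -0.16 (adjusted p = 0.694). Whether the counting used strand is not stated, so reads of these 2 genes may not be separated.

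Slc24a3, a plasma membrane exchanger of the same family on the same chromosome, had mRNA of 52.4, 119.6 and 52.4 in R98S and 148, 154 and 246 in WT (-1.35, SE 0.38, adjusted p = 0.0925). Its RPF overlapped at 10.1 to 32.5. The phosphate importer Slc20a2 had mRNA of 564, 554 and 469 against 945, 759.6 and 979.6, below WT throughout (-0.75, SE 0.19, adjusted p = 0.0637), with RPF of 204, 209.5 and 139 against 204, 137 and 225 (-0.03, SE 0.26, adjusted p = 0.961). Chromosome 8, where Slc20a2 lies, had a median mRNA log2 fold change of -0.22, and without chromosome medians its adjusted p was 0.152. The call of Slc24a3 was lost without R98S clones 11 or 35 or WT clones 29 or 36 (adjusted p from 0.135 to 0.301), and that of Slc20a2 without any R98S clone or WT clone 36 (from 0.127 to 0.209).

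Slc19a2, a thiamine importer, had mRNA of 942, 1051 and 922 in R98S and 1885, 1335 and 1529.7 in WT (-0.69, SE 0.18, adjusted p = 0.0755), and Slc22a23, an orphan of the organic ion family, 441, 381 and 428 against 561, 934 and 714 (-0.79, SE 0.22, adjusted p = 0.0926). Both were below WT in each clone, and their RPF values were not called (-0.35, SE 0.17, adjusted p = 0.297, and -0.45, SE 0.30, adjusted p = 0.434). Slc19a2 lost its call without any R98S clone or WT clone 36 (adjusted p from 0.142 to 0.260), and Slc22a23 without any clone but WT clone 28 (from 0.14 to 0.3).

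Slc9a3r1, the scaffold protein NHERF1 that anchors transporters to the cytoskeleton and not itself a carrier, rose in both assays. Its mRNA was 2047, 2304 and 2934 in R98S and 1085, 1438 and 1096 in WT, and its RPF 1065, 1454 and 1478 against 586, 709 and 599.6. Both were about the same size, 2.01-fold in mRNA (1.00, SE 0.20, adjusted p = 0.0242) and 2.11-fold in RPF (1.07, SE 0.19, adjusted p = 0.0141), with a TE difference of 0.06 (SE 0.18, adjusted p = 0.934). Without WT clone 36 its mRNA adjusted p was 0.102, and its RPF call held whichever clone was left out. Chromosome 11, which holds Slc9a3r1 and Slc16a3, had a median shift of 0.31 in mRNA of R98S clone 13 and of -0.02 and 0.02 in the other R98S clones, and both genes kept their calls with chromosome medians removed.

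Taking the 21 calls of members together, 3 held whichever clone was left out (Slc38a6 in mRNA, Slc24a5 and Slc9a3r1 in RPF), 7 were lost without 1 or 2 of the clones and 11 without 4 or 5 of the 6. Leaving out R98S clone 13 ended 16 calls and leaving out R98S clone 11 ended 13, the most of any clone. Calls over all genes also became fewer, from 787 to 315 without clone 13 and 343 without clone 11 in mRNA. In RPF they went from 743 to 229 and 272, so this loss was not particular to the members. No log2 fold change of a called member turned its sign under any alternative.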

How the data were processed

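Per the study's methods, RPF and mRNA libraries came from the same 6 Ba/F3 clones. The authors trimmed footprints, removed rRNA and tRNA reads with Bowtie2, aligned reads to mm10 with TopHat2 2.0.11, kept a mapping quality of at least 10 and counted RPF over coding sequence without its first 15 and last 5 codons, after merging 3 technical footprinting replicates per clone. The annotation, the counting tool and its use of strand are not given in the sources used here. The values deposited by the authors are a normalized signal, gene counts divided by a DESeq2 size factor within each assay, and whole reads were recovered for all of them (tolerance 1e-06). Every gene of the RPF table had a read in all 6 RPF libraries, so genes that lacked footprints in 1 or more clones could not be members.

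The members and gene lists were chosen with earlier results of these data known. Groups came from the sample labels. Each assay was tested with limma 3.58.1 (R 4.3.3, moderated test with a mean trend, two-sided) on log2(value + 1), for genes with a mean of at least 10, with Benjamini-Hochberg adjustment over all genes tested and a threshold of 0.1. Fold changes on this scale understate low genes. TE was the per-clone difference of the log2 values, which pairs the assays by clone. The deviations of the assays from their group means correlated within each clone (r from 0.218 to 0.681 over 9043 genes, each highest for its own clone). Positions and lengths came from GENCODE M21 (mm10), which matched all 160 symbols, and promoters from RefSeq. Exons of another gene overlap 49 members. Slc4a1ap and Slc7a6os were put among genes that are not carriers after the files were opened.

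Genes with full values were all called members, the extremes and the most abundant gene of the amino acid, sugar, metal and mitochondrial classes, and genes from a fixed list per class. Values of Mpc2, Tfrc and overlapping genes were added after they were seen. Alternatives were pseudocounts of 0.5 and 5, no filter or a filter of 50, DESeq2 1.42.0 and edgeR 4.0.16 on recovered reads, library quality weights, removal of chromosome medians, leaving out each clone, TE without pairing, and lengths of the longest transcript. A few genes are not reported here. The code was tested on simulated data. The study's own TE test was not run. Depth limits precision most for footprints of low genes.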

Additional observations from a re-analysis of the deposited data

How the results depend on the processing

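Pseudocounts of 0.5 and 5 and edgeR left every count of called members within 1.5 times its value. DESeq2 on recovered reads called 5 members higher and 16 lower in mRNA, 9 lower in RPF and 1 lower in TE (Slc38a6), in all 13.4% of members in mRNA and 9.93% in RPF where 11.3% of all genes were called in each assay. Library quality weights called 12 higher and 29 lower in mRNA, 15 lower in RPF, and 9 higher and 8 lower in TE, and with them 26.1% of all genes were called in mRNA, 18.8% in RPF and 8.8% in TE, beside 26.1%, 14.6% and 12.1% of members. Without a low-value filter, which raised the genes tested in mRNA to 21260, 4 members were lower in mRNA. With a filter of 50, which left 8295 genes in RPF, 3 were higher in RPF. These settings called 3.33% of all genes in mRNA and 7.05% in RPF, beside 4.38% and 5.79% of members. With chromosome medians removed 7 were lower in RPF, and the cause was not tested. In all 7.95% of members were then called in RPF, beside 6.91% of all genes. Leaving out 1 clone gave 2 to 5 members higher in mRNA (5 without R98S clone 35 or WT clone 28), 1 to 12 lower in mRNA (2, 1, 5 and 3 without R98S clones 11, 13 and 35 and WT clone 36), 1 to 6 higher in RPF (2 and 1 without R98S clones 11 and 13, 3 without WT clone 28 or 29), 1 to 10 lower in RPF (2, 1 and 9 without R98S clones 11, 13 and 35, 1 and 10 without WT clones 28 and 29), and 0 in either direction in TE. Over all genes, leaving out 1 clone called 2.78% to 9.82% in mRNA and 2.39% to 12% in RPF. The shares of members were 1.9% to 10.8% and 1.32% to 9.93%. With no replicate block, that is with assays not paired by clone, TE called 3 of 9043 genes and 0 members. Without this pairing 7 members had an unadjusted p under 0.05 instead of 16. The share of all genes at this threshold was not counted without pairing, so the drop cannot be called particular to the members.

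The mRNA calls of Slc16a6, Slc22a23, Slc24a3, Slc24a5, Slc30a1 and Bsg were lost without a low-value filter (adjusted limma p from 0.101 to 0.124), those of Slc16a6 and Slc24a3 also with a filter of 50 (0.103 and 0.102), that of Slc24a3 with edgeR (0.117), and that of Slc22a23 with chromosome medians removed (0.103). TE of Slc25a15 and Slc36a1 passed the threshold with library quality weights (adjusted p = 0.00912 and 0.0247). Of 476 alternative values of 34 single-gene results 384 kept their direction and side of the threshold, 88 lost the call, 4 gained it and 0 changed sign.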
